A study of Mus musculus with 6 samples.

Results

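The cytosolic ribosomal proteins form the protein part of the ribosome that translates nuclear-encoded mRNA. Their genes were taken from the count table by symbol, as rows named Rpl or Rps with a number, an optional letter and an optional paralog ending, together with Rpsa, Rplp0, Rplp1 and Rplp2, and without rows whose symbol contains -ps, the mark of a pseudogene, or the Rps6k kinases. This gave 85 of the 23420 rows, 33 of the small subunit and 52 of the large subunit, paralogs included. The rule reads symbols alone. It therefore also took in Rps4y2, which GENCODE annotates as a transcribed processed pseudogene without a coding length. The libraries came from splenic B cells of 3 Ahr+/+ and 3 Ahr-/- mice on the C57Bl/6J background, 1 library per mouse. The Ahr-/- mice, B6.129-Ahr tm1Bra/J in the study's methods, lack the ligand-activated transcription factor AhR in every cell, so effects within B cells and effects of other AhR-deficient cells cannot be told apart. Cells of both genotypes were cultured for 8 h with 10 µg/ml anti-IgM, which engages the B-cell receptor, and 20 ng/ml IL-4, with 250 nM of FICZ, a ligand of AhR, in the medium during the final 4 h. There was no unstimulated group and no group without FICZ. In general the study matched its mice by sex and age, and an exact age for these 6 mice is not given in the sources used here.

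A ribosome contains each of its core proteins once, apart from the acidic P1 and P2 proteins of the stalk, and free ribosomal proteins are degraded, so their mRNAs are among the most abundant and most evenly expressed of a cell. Many of these mRNAs start with an uninterrupted run of pyrimidines, the 5′ terminal oligopyrimidine (TOP) motif, through which mTORC1 and the RNA-binding protein Larp1 control their translation. Resting lymphocytes are small cells with few ribosomes, and activation through the antigen receptor raises ribosome production before the first division. The counts described here measure mRNA and say nothing about how much of it was translated.

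Total counts lay between 22095096 and 53648787 per library, lowest in Ahr-/- replicate 1 and highest in Ahr-/- replicate 2. Ahr, the targeted gene, had 12681, 12892 and 13953 normalized counts in Ahr+/+ B cells and 8856, 8949 and 9717 in Ahr-/- B cells, where a normalized count is a read count divided by the library's TMM-scaled size relative to the mean of the 6 libraries. The genotypes did not overlap (log2 fold change -0.52 with a standard error of 0.047, adjusted p = 7.1e-06 from edgeR). Single exons cannot be told apart in a count per gene. Markers of B cells were abundant in every library, with 115319 to 124525 summed normalized counts over 9 genes in Ahr+/+ and 136937 to 145377 in Ahr-/- libraries. By edgeR 6 of the 9 were higher in Ahr-/-. Of all genes tested 9.79% were higher and 8.13% lower, the shares beside which the counts of markers here stand. Markers of plasmacytoid dendritic cells summed to 2401 to 2766 over 6 genes in Ahr+/+ and 3043 to 4102 in Ahr-/- libraries, with 5 of the 6 higher by edgeR. Those of conventional dendritic cells summed to 810.1 to 933 and 872 to 1057 over 7 genes, with 4 higher and 1 lower. T-cell markers (6 genes, 1 lower) summed to 150.5 to 282 and 172 to 188, and NK-cell markers (4 genes, 2 higher) to 145 to 239 and 231 to 359. Markers of monocytes, macrophages and granulocytes (6 genes, 1 lower) summed to 819 to 1107 and 235 to 805. The lower gene of this last list, Emr1, had means of 650 and 54.1 normalized counts. The other 5 genes of the list had log2 fold changes above 0 and were not called. Plasma-cell genes (4 genes, 1 higher and 2 lower) summed to 14210 to 20211 and 13375 to 15019, and the globin rows Hba-a1 and Hbb-b1 were at 0 counts in all libraries. All values are of bulk cultures, in which fewer cells of a type and less RNA per cell cannot be told apart, and the part of these cell types in the values below was not tested.

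The sequence around annotated starts shows what a TOP-like start looks like among the genes that the comparison below turns on. In RefSeq (GRCm38.p6) 64 of the members had 1 or more annotated starts, 76 in all, and a run of at least 8 pyrimidines within 10 bases of the start was found at 39.5% of these, against 14.0% of 32851 starts of all genes. The following windows cover 10 bases before the start and 20 bases from it on, on the coding strand, for 3 genes with such a run and 2 without, all with an adjusted p under 0.05 between genotypes. Capitals mark the pyrimidine run. It need not begin at the annotated start, and in Rpl39 it begins at base 7 from the start on. Whether the annotated starts are those used in these cells was not tested. A window without a run therefore does not show that the mRNA lacks a TOP motif.
Rpl35, chr2:39005112-39005141, minus strand: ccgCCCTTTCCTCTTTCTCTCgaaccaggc
Rpl38, chr11:114668570-114668599, plus strand: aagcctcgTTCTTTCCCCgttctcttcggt
Rpl39, chrX:37085203-37085232, minus strand: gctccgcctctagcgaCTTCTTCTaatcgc
Rps28, chr17:33824543-33824572, minus strand: cgcgtgcggtctcgcgagagcgaaagtgag
Rpl7l1, chr17:46782637-46782666, minus strand: gctgcgcaagcgcagtagctgaagcaccgg

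Among tested members with an annotated start, 3 of 29 with a run (10.3%) and 4 of 32 without one (12.5%) were higher in Ahr-/- B cells by edgeR, against 9.79% of all genes tested, and 1 of the 32 was lower, against 8.13%. Both shares of higher genes were near that of the whole table. Rplp1 and Rps29, which were also higher, had no start in the RefSeq table and are not in this split. The median log2 fold change was 0.051 over the 29 members with a run and 0.035 over the 32 without one. The core of the AhR binding element, GCGTG, was searched on both strands over 300 bases, from 250 before to 50 after each start. It was found at 56.6% of the members' starts and 32.4% of all starts. The E-box CACGTG was found at 10.5% and 7.15%, and the ETS-type motif CCGGAAG at 35.5% and 8.86%. These matches describe the letters of the windows and are not binding sites, and the pyrimidine run was searched on the coding strand only.

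Levels of the members were high and even. Of the 85 genes, 77 had a mean of at least 1000 normalized counts, and per 1000 coding bases these 77 had a median of 80027 normalized counts with quartiles of 67515 and 96554. All but 5 of the 77 lay within 2-fold of that median. Rpl41, whose product is a very short basic peptide of the large subunit, stood highest at 574461 normalized counts per 1000 coding bases, 7.18 times the median. Its coding part is 75 bases of a 437-base transcript, and per 1000 transcript bases the highest member was Rps2, a small-subunit protein near the mRNA entry site, at 117045 against a median of 52737. Rps29, a zinc-binding protein of the small-subunit head, and Rps24, a protein of the small-subunit body, followed Rpl41 on the coding scale at 150286 and 142049. In every library Rpl41 was above all other members on this scale. The 4 members more than 2-fold under the median per coding length were the paralogs Rpl36al, Rpl7l1, Rps27l and Rpl22l1, at 30326, 14029, 13373 and 6852 normalized counts per 1000 coding bases.

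**Figure D1:**
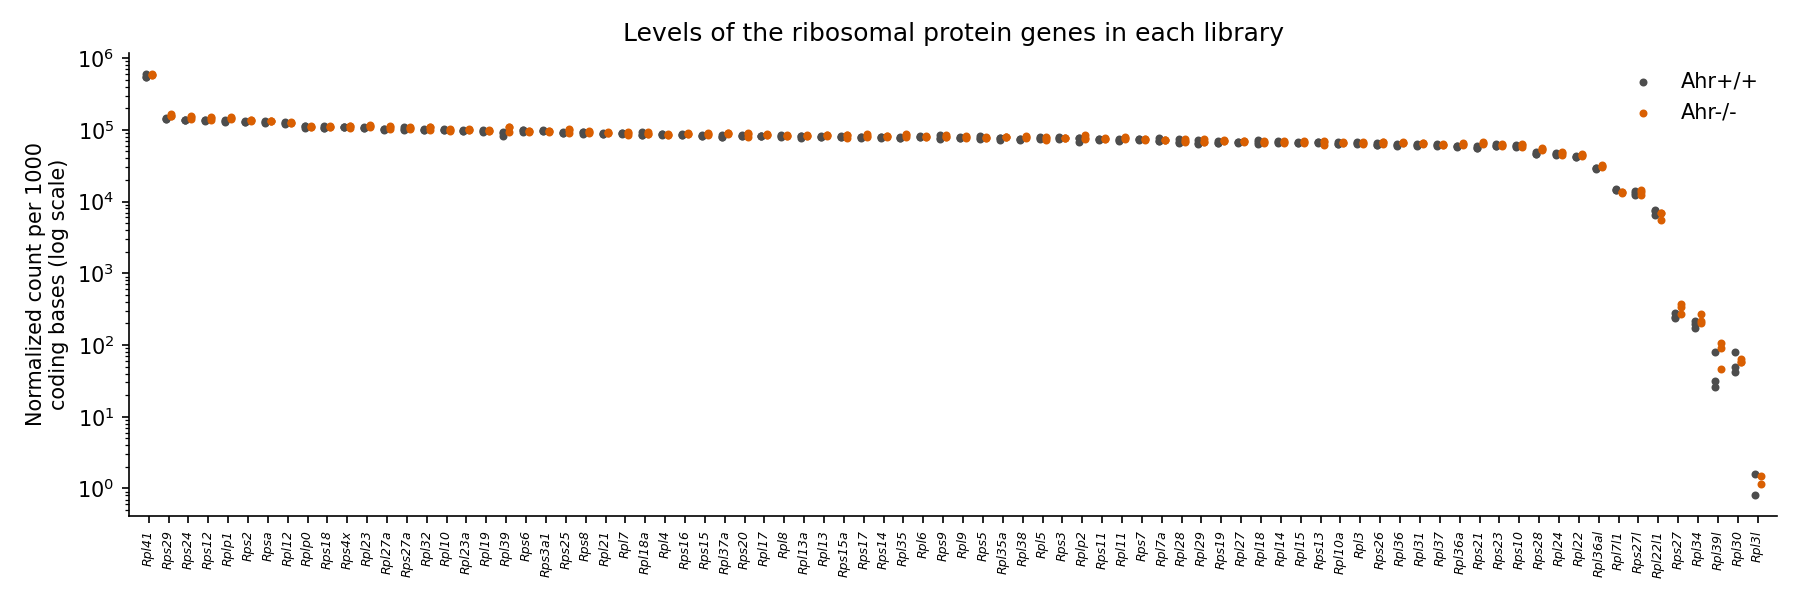
Normalized counts per 1000 coding bases (log scale) of 82 ribosomal protein genes in each of the 6 libraries, ordered by their mean, with grey points for Ahr+/+ and orange points for Ahr-/- mice. Rpl10l and Rpl26 had no counts and Rps4y2 has no coding length, so they are not drawn, and values of 0 in single libraries are left out. Rpl41 lies highest, most members lie close together, and a small group of rows lies far below.

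Each of the remaining 8 rows had under 900 counts over the 6 libraries. Rpl26 had 0 counts and Rpl30 had 120 over the 6 libraries, and Rpl34 and Rps27 had 454 and 432, although all of them encode core ribosomal proteins. For Rps27, 98.6% of the 50-base windows of its main transcript also occur in transcripts of other genes, all of them in Rps27rt. The share was 71.3% for Rpl26, 47.8% for Rpl30 and 50.6% for Rpl34. Such windows were common among well-counted members as well, with a median of 55.5% over the 77 and 92.4% for Rps10. Whether reads of the low rows were given to copies of these genes or dropped was not tested, so their values are not taken as mRNA levels. The other low rows were the muscle paralog Rpl3l with 7 counts, the testis paralogs Rpl10l with 0 and Rpl39l with 56, and Rps4y2, an older symbol of Rps4l, with 895. A row at 0 can hide up to 3 counts per library, or 2.13 to 5.15 normalized counts, for counting error only.

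The comparison of genotypes asked whether loss of AhR changed these mRNAs in activated B cells. A small number of genes for short ribosomal proteins were slightly higher in Ahr-/- B cells, 1 paralog gene was lower, and most members lay close to no change. By edgeR 82 of the 85 genes could be tested, of which 9 were higher and 1 was lower at an adjusted p under 0.05. The 10 called are 12.2% of the members tested, against 17.9% of all 13682 genes tested. By direction, 11.0% of the members were higher, against 9.79% of all genes, and 1.22% were lower, against 8.13% of all genes. The share called was thus not above that of the whole table, and an unadjusted p under 0.05 was found for 20 members (24.4%), against 29.4% of all genes. Among the 77 well-counted members the log2 fold changes ran from -0.16 to 0.24. The highest value of the 82, 0.77, was that of Rpl39l, which had 56 counts in total and was not called. The median over the 82 was 0.042, against 0.0022 for all genes, and 72 of them (87.8%) lay above 0, against 50.7% of all genes. Without Ahr+/+ replicate 3 this number was 59, and it was 49 with the correction for coding length described further on. Their median absolute change was 0.048, against 0.11 for all genes. No member was called with a 2-fold change, which 3.4% of all genes were. The genotypes did not overlap for 17 members (20.7%), 16 of them higher in Ahr-/- cells, against 33.5% of all genes without overlap, 17.7% higher and 15.8% lower.

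Among small-subunit genes, 3 of 33 were higher (9.09%, against 9.79% of all genes) and none lower by edgeR, so the share was not above that of the whole table. Rps28, a small protein near the mRNA exit channel, had 9657, 10033 and 9624 normalized counts in Ahr+/+ and 10996, 11676 and 10921 in Ahr-/- B cells. Its means were 9771 ± 228 and 11198 ± 416 (SD, n = 3 mice per genotype), 14.6% apart on the fitted scale (log2 fold change 0.20 with a standard error of 0.039, adjusted p = 0.0032 from edgeR). Rps21, which takes part in maturation of the small subunit, had 14745, 14035 and 13662 in Ahr+/+ and 16507, 16921 and 15538 in Ahr-/- cells. Every Ahr-/- library was above every Ahr+/+ library for both genes. The log2 fold change of Rps21 was 0.21 (with a standard error of 0.042 and adjusted p = 0.0043 from edgeR). Rps29 had 23462, 24489 and 23979 in Ahr+/+ and 25851, 27942 and 25764 in Ahr-/- cells, again without overlap, and a log2 fold change of 0.15 (with a standard error of 0.039 and adjusted p = 0.021 from edgeR). Ahr-/- replicate 2 was the highest library for all 3 genes.

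Of the 49 large-subunit genes tested, 6 were higher and 1 was lower, 14.3% called in all against 17.9% of all genes, with 12.2% higher against 9.79% and 2.04% lower against 8.13%. The largest of these differences was that of Rpl39, which lines the exit tunnel of the nascent chain. It had 14054, 12696 and 13970.0 normalized counts in Ahr+/+ and 16801, 16810.0 and 14386 in Ahr-/- B cells. Ahr-/- replicate 3 lay just above the Ahr+/+ libraries, well under the other two Ahr-/- libraries, and the log2 fold change was 0.24 (with a standard error of 0.060 and adjusted p = 0.015 from edgeR). Rplp1, the acidic stalk protein that helps to recruit translation factors, had 44926, 46636 and 44402 in Ahr+/+ and 49755, 51674 and 48254 in Ahr-/- cells. Its log2 fold change was 0.14 (with a standard error of 0.036 and adjusted p = 0.018 from edgeR), and the genotypes did not overlap. Its partners in the stalk were not called. Rplp2 lay between 23555 and 26248 in Ahr+/+ and between 25781 and 28992 in Ahr-/- cells (log2 fold change 0.10, adjusted p = 0.21 from edgeR), and Rplp0, the base of the stalk, had a log2 fold change of 0.0035.

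The 4 other large-subunit genes that were higher differed by 8.59% to 9.05% on the fitted scale, and none overlapped between genotypes. Rpl38, known for its part in the translation of homeobox mRNAs in the embryo, had 15663, 15493 and 15128 normalized counts in Ahr+/+ and 17436, 16694 and 16258 in Ahr-/- cells (log2 fold change 0.12, adjusted p = 0.037 from edgeR). Rpl35, which lies beside the exit of the tunnel, had 27957, 28995 and 27990.5 in Ahr+/+ and 30983, 31760.4 and 29494 in Ahr-/- cells (log2 fold change 0.12, adjusted p = 0.041 from edgeR). Rpl37a, a zinc-binding protein of the large subunit, had 21983, 23398 and 21906 in Ahr+/+ and 24653, 24725 and 23743 in Ahr-/- cells (log2 fold change 0.12, adjusted p = 0.042 from edgeR). For these 3 genes the lowest Ahr-/- library was replicate 3. Rpl36al, a paralog of Rpl36a, had 9320.4, 9245 and 9113 in Ahr+/+ and 10082, 10408 and 9693 in Ahr-/- cells (log2 fold change 0.13, adjusted p = 0.036 from edgeR).

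**Figure D2:**
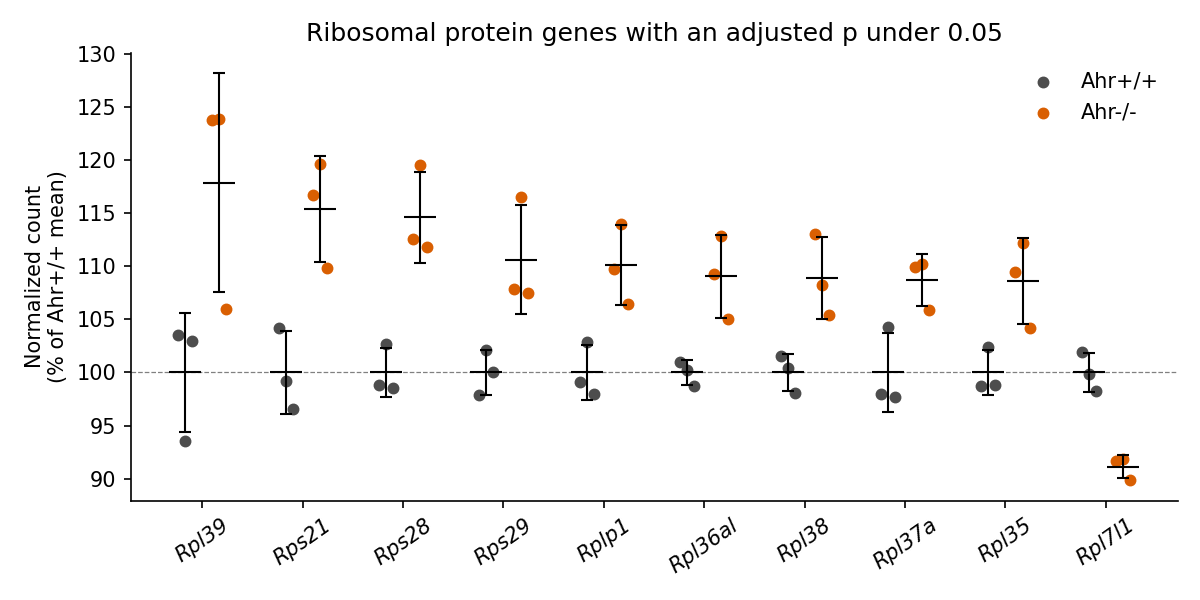
Normalized counts of the 10 ribosomal protein genes with an adjusted p under 0.05, as a percentage of each gene's Ahr+/+ mean (the axis does not start at 0). Points are single mice, bars are the mean and SD of 3 mice, grey for Ahr+/+ and orange for Ahr-/-. In 9 genes all Ahr-/- points lie above the Ahr+/+ points, and in Rpl7l1 all lie below.

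Only a few of these calls held when single libraries were left out. Of the 82 members 10 were called with all libraries. Without Ahr+/+ replicate 1, 2 or 3 the numbers were 3, 8 and 4, against 14.1%, 16.3% and 13.1% of all genes. Without Ahr-/- replicate 1, 2 or 3 they were 6, 2 and 17, against 15.5%, 12.4% and 19.3% of all genes. Only the 17 without Ahr-/- replicate 3 were a larger share of the 82 than the share of all genes. Rps21 and Rps28 were called in each of these 6 fits, and no other member was. With library size alone in place of TMM, 17 of the 82 members were called, a share above the 18.6% of all genes. DESeq2's Wald test called 13 of the 82, a share below the 17.4% of all genes.

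The chromosomal positions of the called genes were spread over 7 chromosomes of GRCm38. Rps28 lies on chromosome 17 from 33819027 to 33824562 and Rpl7l1 on the same chromosome from 46773907 to 46782672. Rps29 (69157722 to 69159186) and Rpl36al (69182731 to 69184083) are near neighbours on chromosome 12, the chromosome that carries Ahr. Rps21 (180257377 to 180258445) and Rpl35 (39001580 to 39005624) lie on chromosome 2, Rpl37a on chromosome 1, Rplp1 on chromosome 9, Rpl38 on chromosome 11 and Rpl39 on the X chromosome.

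Paralogs of ribosomal protein genes can replace the main form in some tissues or act in ribosome assembly. Rpl7l1, a paralog of Rpl7 found on precursors of the large subunit, was the only member with a call in the lower direction. It had 11043, 10818 and 10641 normalized counts in Ahr+/+ and 9929, 9956 and 9735 in Ahr-/- cells (log2 fold change -0.13 with a standard error of 0.034, adjusted p = 0.016 from edgeR), without overlap. It was not called without Ahr+/+ replicate 1 or without Ahr-/- replicate 2, where the adjusted p rose to at most 0.072. Rpl7 itself had a log2 fold change of -0.010. In counts of Rpl7l1 per 100 counts of Rpl7 the Ahr+/+ libraries had 15.1, 14.9 and 14.8 and the Ahr-/- libraries 13.3, 13.8 and 14.1. Rpl22l1 had 2717, 2396 and 2814 normalized counts in Ahr+/+ and 2549, 2521 and 2051 in Ahr-/- cells, with overlap (log2 fold change -0.16, adjusted p = 0.21 from edgeR). Rpl22, its parent, which is needed for early lymphocyte development, had a log2 fold change of 0.065 (adjusted p = 0.26 from edgeR). Per 100 counts of Rpl22 the libraries had 16.3, 14.7 and 17.7 counts of Rpl22l1 in Ahr+/+ and 14.7, 14.6 and 12.4 in Ahr-/- cells, which did not overlap, although Ahr+/+ replicate 2 and Ahr-/- replicate 1 nearly met.

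The ratio of paralog to parent was tested in 5 pairs with a two-sided exact permutation test, in which 3 mice against 3 cannot give a p under 0.1. Both of the ratios above reached this value (difference in log2 ratio -0.12 for Rpl7l1 and -0.22 for Rpl22l1, both with an adjusted p of 0.25 over the 5 pairs by permutation). Rpl36al stood at 48.8 to 49.3 counts per 100 of Rpl36a in Ahr+/+ and 49.3 to 50.1 in Ahr-/- cells, an almost constant ratio (difference in log2 ratio 0.020, exact permutation p = 0.3). Rpl36a had 18908, 18959.6 and 18480.3 normalized counts in Ahr+/+ and 20105, 20806 and 19667 in Ahr-/- cells (log2 fold change 0.10, adjusted p = 0.056 from edgeR). Rps27l, a paralog known as a p53 target, had between 3125 and 3681 normalized counts over the 6 libraries (log2 fold change 0.021), and its ratio to Rps27 rests on the low row of the parent (difference in log2 ratio -0.36, exact permutation p = 0.2). The pseudogene Rps4y2 differed from Rps4x by a change in log2 ratio of 0.24 (exact permutation p = 0.6) and had 97.8 to 192 normalized counts. Of the parents of pairs that were not tested, Rpl3, which shapes the peptidyl transferase centre, had a log2 fold change of 0.0031, and Rpl10, which joins the large subunit last, one of -0.0082.

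Members with known roles outside the ribosome or in disease were not called, apart from those above. Rps6, the substrate of S6 kinase, had 74497, 73778 and 70627 normalized counts in Ahr+/+ and 72567, 72250 and 69036 in Ahr-/- cells (log2 fold change -0.034, standard error 0.035). Rpl5 and Rpl11, which with 5S rRNA bind Mdm2 and stabilize p53, had log2 fold changes of -0.031 and 0.087 (adjusted p = 0.66 and 0.13 from edgeR). Rps19 and Rps26, whose human counterparts are mutated in Diamond-Blackfan anaemia, had 0.077 and 0.080 on the same scale. Rps14, whose human counterpart is lost in the 5q syndrome, had 0.044. Rpsa, also known as a laminin receptor, had 0.032, Rps3, with a role in DNA repair, 0.015, and Rps27a, made as a fusion with ubiquitin, 0.016. For Rpl13a, part of an interferon-controlled translational silencer, the value was 0.032, for Rps25, used by several viral internal ribosome entry sites, 0.087, and for Rpl41 it was 0.051. Rps24, at 54389, 54266 and 54260.4 in Ahr+/+ and 59210.4, 62396 and 55544 in Ahr-/- cells, did not overlap and missed the threshold (log2 fold change 0.12, adjusted p = 0.060 from edgeR). Rps24 is named here because it is among the 3 most abundant members by coding length. The standard errors of these genes lay between 0.032 and 0.042, so changes of a few percent could not be told from none with 3 mice per genotype.

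The members together took up a slightly larger share of the counts in Ahr-/- libraries. It was 8.48%, 8.64% and 8.35% of all counts in Ahr+/+ and 8.97%, 9.0% and 8.63% in Ahr-/- libraries, with means of 8.49 ± 0.145% and 8.87 ± 0.206% (SD, n = 3 mice per genotype). The genotypes overlapped, since Ahr-/- replicate 3 lay below Ahr+/+ replicate 2. The small-subunit members held 3.495% to 3.605% of Ahr+/+ and 3.614% to 3.787% of Ahr-/- counts, by a narrow margin without overlap. The large-subunit members held 4.855% to 5.033% and 5.015% to 5.211%, with overlap. Members with a coding length of up to 400 bases, a limit chosen after the values were seen, held 1.53% to 1.57% of Ahr+/+ and 1.62% to 1.75% of Ahr-/- counts, without overlap. Longer members held 6.82% to 7.07% and 7.01% to 7.26%, with overlap. A share depends on all other genes of the library, and mitochondrial transcripts are not among the rows of the table.

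**Figure D3:**
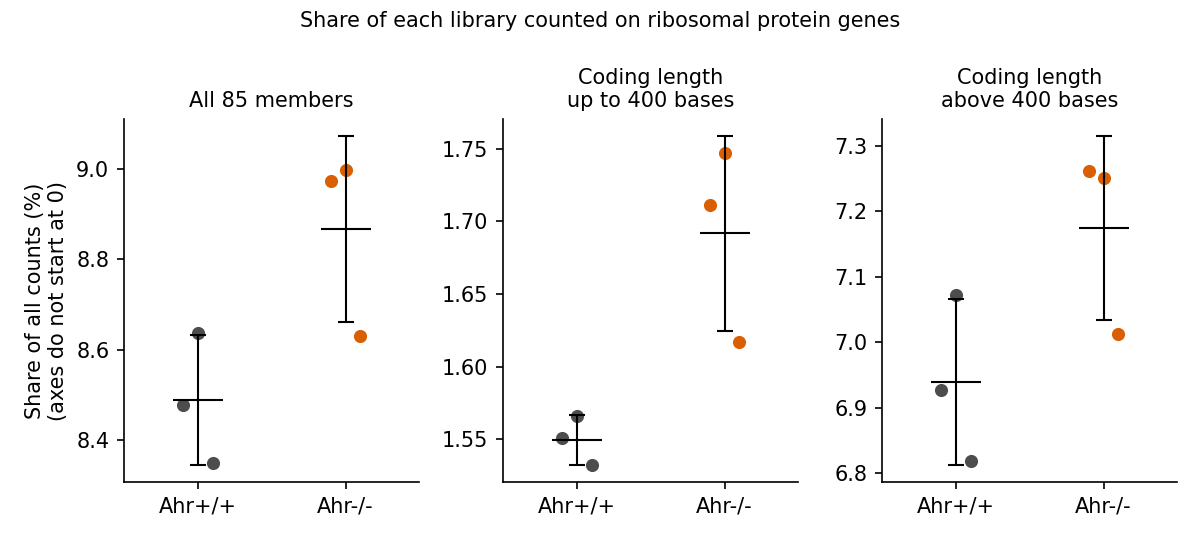
Share of all counts of a library that fell on ribosomal protein genes, in percent (axes do not start at 0), for all 85 members, for the 29 with a coding length of up to 400 bases and for the 55 longer ones. Points are single mice, bars the mean and SD of 3 mice. The genotypes overlap for all members and for the longer ones, and not for the short ones.

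The differences between genotypes varied with the length of the coding sequence and with the level of expression. All 9 genes that were higher have coding lengths between 153 and 369 bases. At the limit of 400 bases, which was set on these values, 9 of 29 shorter members were higher (31.0%, against 9.79% of all genes) and none lower (8.13% of all genes), with a median log2 fold change of 0.10. Of 52 longer members tested none was higher and 1 was lower, with a median of 0.029. In single libraries the median log2 level of the short members relative to their Ahr+/+ mean was 0.0097, 0.0092 and -0.023 in Ahr+/+ and 0.11, 0.14 and 0.066 in Ahr-/- cells. For the longer members these values were 0.0028, 0.030 and -0.030 in Ahr+/+ and 0.030, 0.041 and 0.0014 in Ahr-/- cells. Across the 77 members with at least 1000 normalized counts, Spearman's rho between coding length and log2 fold change was -0.737, a description over genes that share the same 6 libraries. It was -0.136 over 6062 other genes at these levels. Between the mean level (not divided by length) and log2 fold change rho was -0.473 over the 77 members and -0.15 over the other genes, and the parts of length and level were not tested apart.

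Other short genes leaned the same way. Among 277 other genes of up to 400 coding bases and at least 1000 normalized counts the median log2 fold change was 0.063, and 20.2% were higher and 3.97% lower. Of the 25 members in this range 9 were higher, with a median of 0.10. From 400 to 600 bases the medians were 0.038 over 29 members and 0.015 over 470 other genes, and from 600 to 900 bases 0.010 over 20 members and -0.0015 over 760 other genes. Above 3000 bases, where no member lies, 953 other genes had a median of -0.027. When each library was corrected for its trend of counts with coding length, estimated on genes other than the members, 2 of the 82 members stayed called (2.44%), against 17.8% of all genes. They were Rps21 (log2 fold change 0.13, adjusted p = 0.034 from edgeR) and Rpl7l1 (-0.15, adjusted p = 0.0059 from edgeR). The median of the members fell from 0.042 to 0.0072 with this correction, and rho over the 77 members was then -0.422. This correction was added after the data were seen, and whether the trend with length arose in the cells or in the libraries was not tested.

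**Figure D4:**
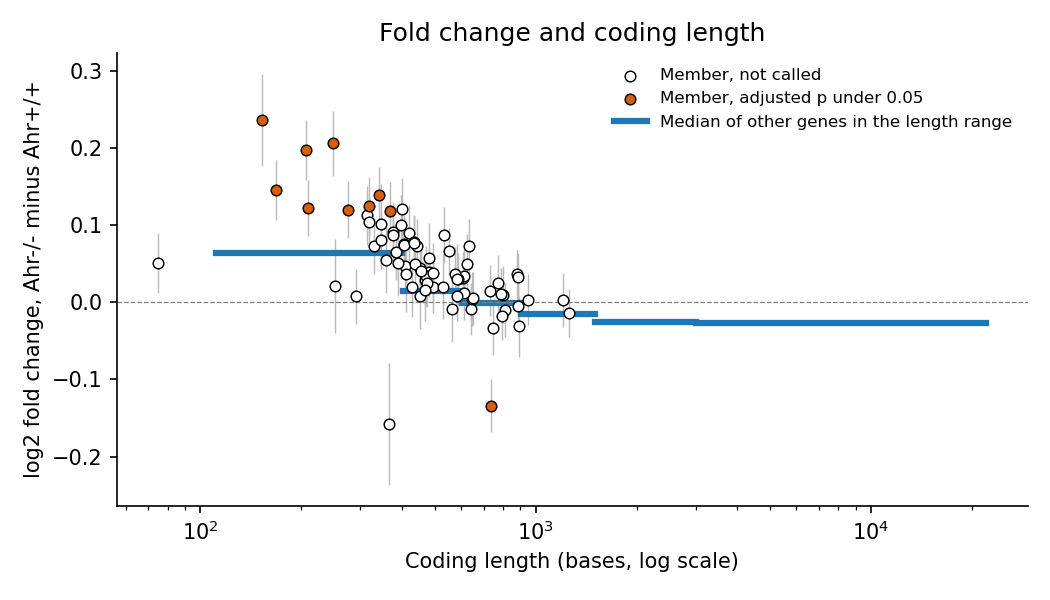
The log2 fold change, Ahr-/- minus Ahr+/+, of the 77 members with at least 1000 normalized counts against coding length in bases (log scale), with standard errors. Filled points have an adjusted p under 0.05 from edgeR, and blue bars give the median of other genes in each length range, from the shortest to the longest gene of the range. The called members that were higher sit at the short end, where the bar for other genes also lies above 0.

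Fau, a small-subunit protein made as a fusion with a ubiquitin-like protein, and Gnb2l1, the scaffold protein Rack1, are ribosomal proteins with symbols that the choice by name does not take in. They had log2 fold changes of 0.019 and -0.042, and neither was called by edgeR or had an unadjusted p under 0.05. Of 18 other TOP mRNAs, for elongation and initiation factors and related proteins, 1 (5.56%) was called, in the lower direction, and their median was -0.019. Over all genes 17.9% were called and 8.13% were lower. The called TOP mRNA was that of Nap1l1, a histone chaperone, with 32687, 30824 and 31481 normalized counts in Ahr+/+ and 28539, 28819 and 27909 in Ahr-/- cells (log2 fold change -0.16, adjusted p = 0.0068 from edgeR). Eef1a1, the most abundant of them, had a log2 fold change of 0.0018. Of 7 snoRNA host genes with TOP starts none was called or had an unadjusted p under 0.05 by edgeR, and their median was 0.014.

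Of 17 genes of mTORC1 signalling and translation control, 1 was higher and 2 were lower by edgeR, 17.6% called in all, near the 17.9% over all genes, and the other 14 were not called. Larp1, the TOP mRNA-binding protein, had 28313, 30716 and 29911 normalized counts in Ahr+/+ and 24567, 26200 and 26442 in Ahr-/- cells, without overlap (log2 fold change -0.20 with a standard error of 0.041, adjusted p = 0.0038 from edgeR). Rheb, the GTPase that activates mTORC1, had 3046, 2813 and 2835 in Ahr+/+ and 2741, 2489 and 2591 in Ahr-/- cells (log2 fold change -0.16, adjusted p = 0.036 from edgeR). It was not called with library size alone, nor without Ahr+/+ replicate 1, Ahr+/+ replicate 3 or Ahr-/- replicate 2, with adjusted p up to 0.20 from edgeR. Rps6ka1, a ribosomal S6 kinase of the MAP kinase pathway, was higher (log2 fold change 0.19, adjusted p = 0.0058 from edgeR). Mtor itself had a log2 fold change of -0.010.

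Neither the 10 chaperones and loading factors of ribosomal proteins nor the 10 enzymes that modify them held a called gene by edgeR. Over all genes 17.9% were called. An unadjusted p under 0.05 was found for 1 and 2 genes of these lists, against 29.4% of all genes. The medians of the lists were -0.011 and -0.014. Of the 76 genes for proteins of the mitochondrial ribosome, which are translated in the cytosol and imported, 3 were higher and none lower, with a median of 0.027. The share called was 3.95%, below the 17.9% of all genes, of which 9.79% were higher and 8.13% lower. Mrps21 had 1482, 1429 and 1421 normalized counts in Ahr+/+ and 1763, 1749 and 1547 in Ahr-/- cells (log2 fold change 0.22, adjusted p = 0.012 from edgeR). Mrpl20 and Mrps7 had log2 fold changes of 0.14 and 0.13 (adjusted p = 0.036 and 0.038 from edgeR). After the correction for coding length none of the 76 was higher and 2 were lower, Mrps2 and Mrps6 (log2 fold changes -0.12 and -0.21, adjusted p = 0.030 and 0.0095 from edgeR), named after their values were seen. None of the 3 above stayed called with this correction, and each lost its call in at least 2 of the fits with 1 library left out.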

How the data were processed

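RNA of cultured splenic B cells was made into stranded mRNA libraries with a TruSeq kit and run on an Illumina HiSeq. Per gene symbol, raw counts of reads in whole numbers were deposited by the authors. The submitters' processing notes name the build mm10 and the tools TopHat2, HTSeq and DESeq without their order. Whether counting used strand and the annotation are not given in the sources used here. The deposited normalized counts and the authors' own fold changes and p-values were not used. Counts were tested with edgeR 4.0.16 (R 4.3.3) by the quasi-likelihood test after TMM normalization, over 13682 genes with at least 10 counts in total, with Benjamini-Hochberg adjustment over all of them. Genes with an adjusted p under 0.05 are called. DESeq2 1.42.0 was an alternative. The fits were tested on simulated counts. Lengths, positions and shared windows come from GENCODE M21 (GRCm38), and 84 of the 85 members had a coding length. Libraries within a genotype were compared by chi-square (3.80 to 8.80 per degree of freedom), and none was counted as a duplicate. Members and lists were chosen with earlier results of these data known. Named genes were all called members, the 3 highest per coding length and the 3 tested members with the fewest counts in total. The paralogs with their parents, members with roles fixed by name, and up to 4 called genes of each list were also named.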

Additional observations from a re-analysis of the deposited data

How the results depend on the processing

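The number of called members depended on the processing. It was 10 (9 higher, 1 lower) and moved to 17 (16 higher) with library size alone, to 2 (1 higher) with the correction for coding length, and to 2 (2 higher, 0 lower) at an adjusted p under 0.01, where the count over all genes fell from 2453 to 1473 (783 higher, 690.0 lower). With 1 library left out it lay between 2 and 17, with 2 to 16 higher and 0 to 1 lower. The median of the members moved to 0.0072 with the length correction and lay between 0.026 and 0.061 with 1 library left out. With library size alone it was 0.068. All genes had a median of 0.027 with library size alone and -0.0035 with the length correction. DESeq2 called 13 members, and all 10 of the edgeR calls were among them. Replicate numbers did not pair the samples (correlations of same-numbered deviations -0.030, 0.12 and -0.045), and with a replicate block 11 members and 2303 genes were called. Over 44 named genes, 548 alternative values of 616 kept their side of the threshold, 56 lost the call and 12 gained it; the causes were not tested. The 17 named genes that were called kept their direction in every alternative. Of the 27 that were not called, 11 changed sign in at least 1 alternative, 31 values in all, none of which was called. The length correction turned 6 of these, among them Rpl41 (-0.087), Rps27l (-0.059) and Rps27a (-0.023). The share of counts and the 5 paralog ratios kept their direction under every alternative run, and so did Ahr with its call. The 8 low rows hold too few counts for precise values at this depth, and the number of mice, 3 per genotype, limits calls of small changes.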

Other observations

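Rows named as ribosomal protein pseudogenes numbered 6, of which 4 were tested. None was called by edgeR, and none had an unadjusted p under 0.05. They summed to 547 to 589 normalized counts in Ahr+/+ and 539 to 568 in Ahr-/- libraries, far below the members. Rpl34-ps1 was at 0 counts in every library. The Y-linked gene Eif2s3y had 3424 to 3999 normalized counts and Xist, which is expressed from the inactive X chromosome, 5.03 to 10.3 over the 6 libraries. Of the other Y-linked genes of the list, Ddx3y and Kdm5d were lower in Ahr-/- cells (log2 fold changes -0.21 and -0.25, adjusted p = 0.0097 and 0.0061 from edgeR) and Uty was not called.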
